A study of Mus musculus with 19 samples.

Results

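Treatment of 4T1 mammary tumours with an antibody against CTLA-4 was compared with control IgG over both tumour types of the study, as a single pooled effect. The samples were chosen by their labels alone: all 10 tumours labelled anti-CTLA-4 against all 9 labelled IgG, 19 of the 19 samples of the series, with tumour type as a covariate. 4T1 is a murine mammary carcinoma line that grows in syngeneic BALB/c mice. All tumours arose from 1000000 4T1 cells implanted in BALB/cAnN mice, and antibody or IgG was given from day 3, for 3 treatments at 3-day intervals, before harvest. Control tumours came from the line labelled 4T1-Sc (4 under IgG, 5 under anti-CTLA-4), and LDHA-KD tumours came from 4T1 cells with a knockdown of lactate dehydrogenase A (5 under IgG, 5 under anti-CTLA-4). Whether a line was a clone, which knockdown sequence it carried and whether each tumour came from its own mouse are not given in the sources used here, and p-values therefore measure the spread between these samples. Mouse age, antibody clone and dose are likewise not given in the sources used here. Polyadenylated RNA of frozen tumour tissue was sequenced and counted per gene, and levels are given as counts per 1000000 scaled counts (CPM).

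CTLA-4 is an inhibitory receptor of T cells that competes with CD28 for the ligands CD80 and CD86 on antigen-presenting cells. It is induced in activated conventional T cells and held at a high level in regulatory T cells, where the transcription factor FOXP3 supports its expression. Antibodies against it leave more CD80 and CD86 for CD28, and in mice some of them also remove regulatory T cells through Fc gamma receptors on myeloid cells. A bulk tumour library mixes carcinoma cells with all infiltrating and adjacent cells, so fewer cells of a type and less RNA per cell cannot be told apart.

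The gene counts of the 19 libraries, in units of 1000000, ran from 31.8 to 43.3, and 3 counts corresponded to 0.0693 to 0.0944 CPM. Anti-CTLA-4 libraries had a mean of 38.7 in these units and IgG libraries of 35.7 (exact permutation test within tumour types, two-sided p = 0.0431, adjusted p = 0.129 over 3 library measures). Ldha, the knockdown target, spanned 1283 to 1926 CPM in control IgG and 1524 to 2244 CPM in control anti-CTLA-4 tumours, against 452 to 519 and 485 to 584 CPM in LDHA-KD IgG and anti-CTLA-4 tumours, and every library went with its tumour-type label. Epithelial markers were present in every library, with Krt8 between 653 and 1305 CPM. The leading principal component, with 41.8% of the variance, separated the tumour types. On the second, with 17.0%, 4 libraries stood at the far end: replicates 3 and 5 of LDHA-KD anti-CTLA-4 tumours (48.6 and 43.1) and of control anti-CTLA-4 tumours (32.1 and 31.6), while IgG tumours ran from -31.8 to 1.69 and the other anti-CTLA-4 tumours from -18.5 to 13.3. Counts of each list are also given without these 4 libraries, a choice made after seeing the data. The sign of the component was set so that antibody-treated LDHA-KD tumours lay above IgG ones on average, and only its upper end was dropped. All 4 libraries are antibody-treated, and the component was computed from the same genes. A smaller effect without them was thus partly built in, so every value and count without them is a description only. This holds most for genes that load on the component, such as Cxcl3 and Prlr below.

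No gene passed the test of the pooled effect. Of 16763 genes tested with edgeR's quasi-likelihood test, 0 had an adjusted p under 0.05, and the smallest adjusted p was 0.0750. At an unadjusted p under 0.05 there were 3118 genes, 1820 higher under anti-CTLA-4 (10.9% of genes tested) and 1298 lower (7.74%); with scaling by total counts alone the split was 1512 higher and 1883 lower, and no gene passed either. DESeq2 on the same design called 625 genes at an adjusted p under 0.05, 466 higher (2.89%) and 159 lower (0.987%), and limma voom called 0 (2997 at unadjusted p under 0.05). At a looser adjusted p under 0.1, added after seeing the data, edgeR had 286 genes (1.71%), 225 higher (1.34%) and 61 lower (0.364%). Without the 4 libraries, edgeR again called 0, and 559 genes were higher (3.34%) and 376 lower (2.25%) at unadjusted p under 0.05. Together these were 935 of 16739 genes, where a share of 0.05 is expected on average with no effect. That fit had 4 fewer antibody-treated samples, and fewer samples also lower such counts. Without LDHA-KD anti-CTLA-4 replicate 2 alone, edgeR called 328 genes higher and 149 lower. Fold changes were small and skewed upwards: the 5th and 95th percentiles of the log2 fold change were -0.28 and 0.55, 172 genes were at least 2-fold higher and 21 at least 2-fold lower. Because the main test called no gene, the genes and groups below are given as levels, estimates and counts at unadjusted p, to be read against the percentages above.

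After 1 predicted gene, the smallest p of the pooled effect belonged to Ctla4 itself, whose mRNA had a higher, not a lower, estimate in tumours given the antibody against its protein. In control tumours, Ctla4 stood at 3.70, 5.28, 3.00 and 3.28 CPM under IgG and at 6.17, 5.38, 6.25, 6.09 and 8.63 CPM under anti-CTLA-4. In LDHA-KD tumours it stood at 6.89, 7.20, 9.08, 9.54 and 10.0 CPM under IgG and at 12.0, 9.83, 16.4, 16.9 and 19.4 CPM under anti-CTLA-4. The groups did not overlap in control tumours, and in LDHA-KD tumours replicate 2 under antibody (9.83 CPM) lay within the IgG range while the other 4 lay above it. The pooled estimate was 1.73-fold higher (log2 fold change 0.79, SE 0.14, edgeR adjusted p = 0.0750), with 0.77 in control and 0.80 in LDHA-KD tumours. DESeq2 gave an adjusted p of 8.28e-05.

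Ctla4 lies at chr1:60887000-60915832 between its relatives Cd28 (chr1:60716800-60773359) and Icos (chr1:60977927-61000320), both costimulatory receptors of T cells. The levels of Icos in control tumours were 3.25, 9.34, 5.6 and 4.45 CPM under IgG and 10.8, 12.2, 13.9, 8.55 and 17.1 CPM under anti-CTLA-4. Those in LDHA-KD tumours were 18.7, 16.8, 23.2, 16.5 and 24.3 CPM under IgG and 23.6, 29.9, 39.1, 42.4 and 35.0 CPM under anti-CTLA-4. Only LDHA-KD replicate 1 and control replicate 4 under antibody reached into the IgG ranges. Icos was 1.92-fold higher (log2 fold change 0.94, SE 0.17, adjusted p = 0.0750 with edgeR). Cd28, the activating receptor for the same ligands, spanned 0.318 to 1.31 CPM under IgG and 1.06 to 2.17 CPM under antibody in control tumours, and 3.21 to 4.27 CPM and 3.54 to 8.07 CPM in LDHA-KD tumours, with overlap in both (log2 fold change 0.81, SE 0.21, adjusted p = 0.0948).

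Cd80 and Cd86 encode the ligands shared by CTLA-4 and CD28. Cd80 spanned 2.89 to 4.53 CPM under IgG and 3.06 to 4.65 CPM under antibody in control tumours, and 3.88 to 4.68 CPM and 4.37 to 7.43 CPM in LDHA-KD tumours (log2 fold change 0.32, SE 0.13, adjusted p = 0.212). This averages estimates of 0.04 in control and 0.56 in LDHA-KD tumours. Their difference did not pass the edgeR interaction test (unadjusted p = 0.0484, adjusted p = 0.9998). Cd86 spanned 13.5 to 21.7 and 13.2 to 17.9 CPM in control tumours, and 25.5 to 33.8 and 25.8 to 33.1 CPM in LDHA-KD tumours, with a pooled estimate near 0 (log2 fold change -0.02, 95% interval -0.21 to 0.16). The interval of Cd80, 0.04 to 0.59, overlaps it, and the difference between the ligands was not tested. Icosl, the ligand of ICOS, was estimated at -0.01 (SE 0.10). Cd274, which encodes the checkpoint ligand PD-L1, spanned 33.5 to 65.4 and 55.9 to 129.8 CPM in control tumours and 72.1 to 90.3 and 63.7 to 244 CPM in LDHA-KD tumours (log2 fold change 0.80, SE 0.22, adjusted p = 0.0994), its highest values lying in LDHA-KD replicates 3 and 5 under antibody. Of the 9 genes of the CTLA-4, CD28 and B7 axis, 7 were higher and 0 lower at unadjusted p under 0.05, against 10.9% and 7.74% of all genes, and 5 passed with DESeq2. Their median log2 fold change was 0.71, beside -0.003 over all genes tested, and without the 4 libraries it was 0.34, with 5 genes higher.

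Tnfrsf9 encodes 4-1BB (CD137), a costimulatory receptor induced on activated T cells and present on tumour regulatory T cells. Tnfrsf9 measured 118, 96.9, 79.8 and 50.8 CPM in the control IgG tumours and 197, 94.2, 138, 149 and 191 CPM in the control anti-CTLA-4 tumours. The LDHA-KD tumours held 55.8, 46.6, 54.1, 57.6 and 57.8 CPM under IgG and 65.9, 68.3, 147, 95.1 and 133 CPM under anti-CTLA-4. All 5 antibody-treated LDHA-KD tumours lay above all 5 IgG tumours, and in control tumours only replicate 2 under antibody lay within the IgG range. Tnfrsf9 was 1.83-fold higher (log2 fold change 0.87, SE 0.17, adjusted p = 0.0750).

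The 250 bases before the RefSeq start are shown (build GRCm38.p6, read 5′ to 3′ on the plus strand) for Ctla4 and Tnfrsf9, the receptors just described, and for Cxcl3, the chemokine with the largest estimate of those listed below, since sites for factors of T cell activation and inflammation can be looked for in the letters. Tnfrsf9 has a pair of starts in RefSeq, and the RefSeq start of Ctla4 lies inside the gene span given above, which is that of GENCODE M21. Capitals mark matches, on either strand, to GGAAA (the NFAT core), TGANTCA (AP-1) or the kappa B letters (GGG, any 2 bases, TT, any base, CC).
Ctla4, chr1:60908775-60909024: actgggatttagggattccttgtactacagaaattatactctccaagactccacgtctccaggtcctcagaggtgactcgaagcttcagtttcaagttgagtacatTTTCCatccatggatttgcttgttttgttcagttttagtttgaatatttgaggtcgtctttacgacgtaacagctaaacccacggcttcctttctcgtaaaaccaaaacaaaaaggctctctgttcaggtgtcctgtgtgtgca
Tnfrsf9, chr4:150919905-150920154: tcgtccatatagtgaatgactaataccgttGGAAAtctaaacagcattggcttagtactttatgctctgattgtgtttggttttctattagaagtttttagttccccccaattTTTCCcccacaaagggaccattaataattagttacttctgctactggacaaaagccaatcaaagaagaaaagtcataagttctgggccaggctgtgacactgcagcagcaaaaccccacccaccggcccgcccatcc
Tnfrsf9, chr4:150927749-150927998: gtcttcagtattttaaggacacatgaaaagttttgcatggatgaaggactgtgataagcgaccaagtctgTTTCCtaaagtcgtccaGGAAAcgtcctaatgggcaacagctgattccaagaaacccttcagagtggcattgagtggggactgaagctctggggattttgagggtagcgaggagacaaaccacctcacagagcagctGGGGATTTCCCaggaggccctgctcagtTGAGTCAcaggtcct
Cxcl3, chr5:90785851-90786100: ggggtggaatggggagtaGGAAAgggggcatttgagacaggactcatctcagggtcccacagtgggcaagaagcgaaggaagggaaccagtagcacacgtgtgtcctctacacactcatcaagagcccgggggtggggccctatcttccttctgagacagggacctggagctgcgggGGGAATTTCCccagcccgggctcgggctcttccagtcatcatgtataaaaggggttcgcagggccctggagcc
The Ctla4 window held 1 GGAAA match, on the minus strand 144 to 140 bases before the start, and no match to the other motifs. The upstream Tnfrsf9 start had 2 GGAAA matches. The downstream Tnfrsf9 start had 3 GGAAA matches, 1 AP-1 match 15 to 9 bases before the start and 2 kappa B matches that overlap each other, between 43 and 33 bases before the start. The Cxcl3 window held 2 GGAAA matches and 1 kappa B match, 73 to 64 bases before the start. In Cxcl3 and in the downstream Tnfrsf9 window, 1 GGAAA match lies within the kappa B letters. Over 32851 RefSeq promoter windows of this length, 55.6% held GGAAA, 6.75% the AP-1 letters and 4.11% the kappa B letters. A match is a description of the letters and was not tested for binding.

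T cell genes stood higher as a group. Of 20 T cell genes, all tested, 19 were higher and 0 lower at unadjusted p under 0.05, 16 passed with DESeq2, and the median log2 fold change was 0.67 (0.90 in control and 0.56 in LDHA-KD tumours). Without the 4 libraries 12 of the 20 were higher, with a median of 0.45. Cd3d encodes the delta chain of the CD3 complex, which carries the signal of the T cell receptor. Under IgG, the control tumours had Cd3d levels of 0.979, 2.38, 1.54 and 1.05 CPM, and under anti-CTLA-4 of 3.56, 2.93, 5.19, 2.76 and 4.13 CPM. For the LDHA-KD tumours these were 6.05, 6.41, 7.34, 5.59 and 6.83 CPM and 6.998, 8.59, 11.7, 12.5 and 8.12 CPM. The control groups did not overlap, and among LDHA-KD tumours only replicate 1 under antibody lay within the IgG range. Cd3d was 1.85-fold higher (log2 fold change 0.89, SE 0.18, adjusted p = 0.0750).

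Its neighbour Cd3g gave 0.87 (SE 0.18, adjusted p = 0.0750), and the antibody-treated control tumours again all lay above the IgG ones. Lck, the kinase that starts receptor signalling, gave 0.61 (SE 0.13, adjusted p = 0.0751), and Zap70, the kinase downstream of it, 0.87 (SE 0.19, adjusted p = 0.0751). Among the constant regions of the receptor, Trbc2 gave 0.89 (SE 0.21) and Trac 0.66 (SE 0.18), whereas Trbc1 gave 0.22 (SE 0.18, adjusted p = 0.526) and was the only gene of the list not higher at unadjusted p under 0.05. Trbc1 and Trbc2 are near-identical copies between which reads can be divided or dropped, and the part of this in their values was not tested. Markers of lymph node stroma were sparse: 4 of 9 listed genes were tested, 2 of them were higher (Cxcl13 and Glycam1, which other lists also hold), against a count of 2 without the 4 libraries, and their summed level was 3.02 to 9.31 CPM in control IgG tumours, 4.37 to 12.3 in control anti-CTLA-4 tumours, 5.55 to 13.7 in LDHA-KD IgG tumours and 6.09 to 15.4 in LDHA-KD anti-CTLA-4 tumours. Ccl21a, Ccl19, Cr2 and Madcam1 were counted but did not pass the filter on low counts, and the part of lymph node tissue in the T cell result was not tested.

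Cd4 and Cd8a encode the coreceptors of helper and cytotoxic T cells. Cd4 spanned 2.28 to 6.18 CPM under IgG and 5.202 to 12.2 CPM under antibody in control tumours, and 10.9 to 17.7 and 12.6 to 29.9 CPM in LDHA-KD tumours. LDHA-KD replicate 1 and control replicate 4 under antibody lay within the IgG ranges, and the pooled estimate was 1.78-fold higher (log2 fold change 0.83, SE 0.19, adjusted p = 0.0871). Cd8a spanned 0.487 to 1.31 and 0.778 to 1.30 CPM in control tumours, and 2.32 to 4.51 and 1.11 to 8.14 CPM in LDHA-KD tumours, where the antibody-treated samples held both the lowest and the highest value. Its estimate was 0.42 (SE 0.27, 95% interval -0.15 to 0.99, adjusted p = 0.420), and that of Cd8b1, the beta chain, was 0.01 (SE 0.23). The estimate of Cd8a was 0.24 without LDHA-KD anti-CTLA-4 replicate 3 and 0.20 without the 4 libraries. The intervals of Cd4 and Cd8a overlap, and the difference between the genes was not tested.

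Regulatory T cell genes were higher alongside: 10 of 13 at unadjusted p under 0.05, 0 lower, 6 past the threshold with DESeq2, with a median log2 fold change of 0.63 (7 of 13 higher and 0.43 without the 4 libraries). Foxp3 is the factor that defines these cells. Control tumours held Foxp3 at 1.75, 2.58, 2.16 and 1.08 CPM under IgG and at 2.44, 2.93, 2.85, 1.90 and 3.68 CPM under anti-CTLA-4. Among LDHA-KD tumours the values were 3.89, 4.59, 5.72, 3.98 and 5.72 CPM under IgG and 4.70, 3.78, 9.45, 9.14 and 12.3 CPM under anti-CTLA-4. In LDHA-KD tumours the values under antibody divided, with replicates 3, 4 and 5 above every IgG tumour and replicates 1 and 2 within or below the IgG range, and the control groups overlapped. Foxp3 was 1.56-fold higher (log2 fold change 0.64, SE 0.20, adjusted p = 0.120), and 0.33 without the 4 libraries (unadjusted p = 0.126).

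Il2ra, the alpha chain of the interleukin-2 receptor, separated the LDHA-KD groups completely, with 14.0 to 19.8 CPM under IgG and 21.3 to 33.3 CPM under antibody, and overlapped in control tumours (4.45 to 10.7 and 6.54 to 17.0 CPM). Its estimate was 0.67 (SE 0.17, adjusted p = 0.0922). Tnfrsf18, which encodes the costimulatory receptor GITR, likewise had no overlap in LDHA-KD tumours (6.82 to 10.6 and 11.4 to 15.6 CPM) and gave 0.63 (SE 0.14, adjusted p = 0.0751). Non-overlap of this kind was met by 0.817% of all genes tested in LDHA-KD tumours and by 4 of the 13 genes of this list. In control tumours it was met by 0.555% of all genes in the higher direction and 0.716% in the lower, and by 1 gene of this list, in the higher direction. The 3 members that did not reach unadjusted p under 0.05 were Lrrc32 (0.27), Ikzf2 (0.13) and Entpd1 (0.13). Genes of this list, among them Ctla4 and Tnfrsf9 as said above, are not confined to regulatory T cells. The part of other cells in their values was not tested.

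**Figure D1:**
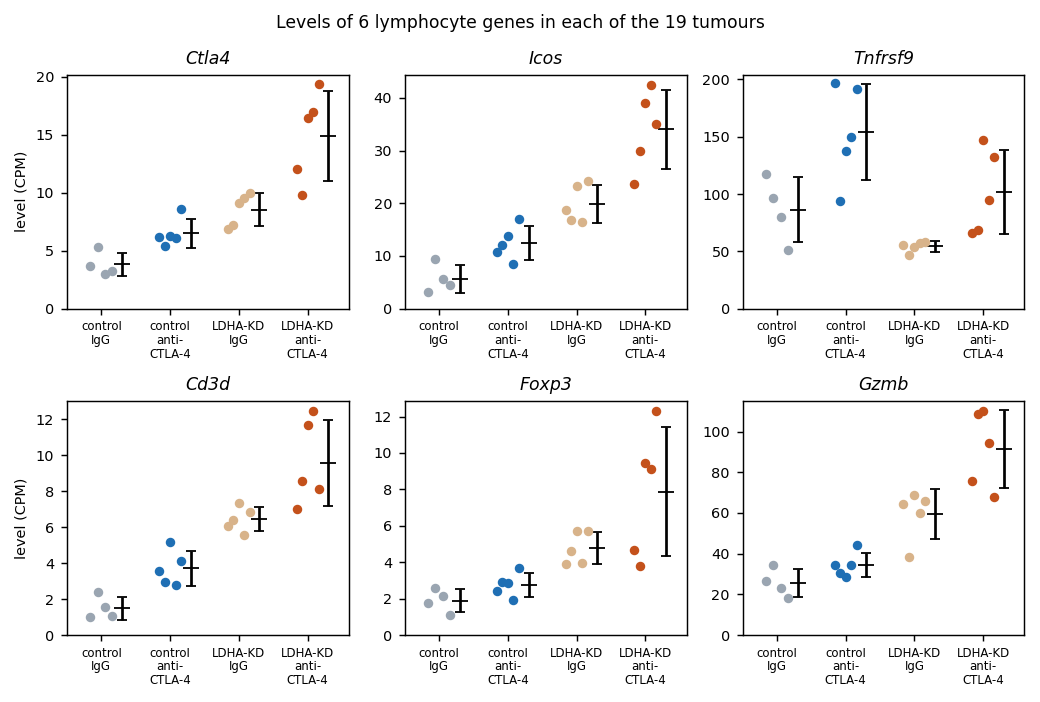
Levels in CPM of Ctla4, Icos, Tnfrsf9, Cd3d, Foxp3 and Gzmb, 1 panel each, in the 19 tumours by group. Points are single tumours and the bars beside them the mean ± SD of each group (n = 4 for control IgG, n = 5 for the others); Ctla4 and Cd3d of antibody-treated control tumours lie above all IgG control tumours, and Foxp3 under antibody in LDHA-KD tumours runs from 3.78 to 12.3 CPM.

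Activation and checkpoint genes of T cells numbered 8 higher and 1 lower of 12 tested at unadjusted p under 0.05 (median 0.63, and 0.36 without the 4 libraries, where 5 were higher and 1 lower). Pdcd1, which encodes PD-1, spanned 1.85 to 3.52 CPM under IgG and 3.59 to 5.53 CPM under antibody in control tumours, without overlap, and 3.82 to 4.79 and 3.40 to 9.07 CPM in LDHA-KD tumours, where antibody replicate 2 was the lowest of the 10 samples (log2 fold change 0.63, SE 0.16, adjusted p = 0.0922). Havcr2, which encodes TIM-3, gave 0.66 (SE 0.18) and Tigit 0.64 (SE 0.19). Tox, a factor of exhausted T cells, gave 0.86 (SE 0.27, adjusted p = 0.117) at levels up to 1.28 CPM. Btla, an inhibitory receptor of B and T cells, was the member with a lower estimate (-0.36, SE 0.15, adjusted p = 0.212), and Lag3 and Cd69 did not reach unadjusted p under 0.05 (0.39 and 0.26).

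Cytotoxic genes divided. Gzmb, the granzyme of activated cytotoxic cells, stood at 26.5, 34.3, 23.02 and 18.3 CPM under IgG and at 34.3, 30.7, 28.5, 34.2 and 44.3 CPM under antibody in control tumours. In LDHA-KD tumours the levels were 64.2, 38.5, 68.8, 59.9 and 65.9 CPM and 75.5, 109, 110.2, 94.2 and 67.7 CPM. Antibody replicate 5 alone lay within the LDHA-KD IgG range, the control groups overlapped, and the estimate was 1.44-fold (log2 fold change 0.53, SE 0.13, adjusted p = 0.0922). Gzma (0.61), Gzmk (0.91), Nkg7 (0.59), Tbx21 (0.84) and Ifng were the other 5 of the 6 genes among 16 that were higher at unadjusted p under 0.05, with 0 lower (median 0.51). Prf1, the pore-forming protein, gave 0.50 (SE 0.28), from 0.08 in control to 0.77 in LDHA-KD tumours. Gzmc to Gzmg, clustered granzymes of similar sequence, were estimated below 0 in control tumours (-0.81 to -0.29) and above 0 in LDHA-KD tumours (0.28 to 1.74), and none of these differences passed the interaction test. Without the 4 libraries 3 of the 16 were higher, and the median was 0.14; it was 0.34 with only replicate 3 of the antibody-treated LDHA-KD tumours left out.

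Interferon gamma itself was at a low level. Ifng stood at 0.714, 0.754, 0.298 and 0.741 CPM under IgG and at 0.940, 1.10, 0.311, 0.456 and 2.81 CPM under antibody in control tumours, and at 1.26, 1.08, 1.31, 1.20 and 1.58 and 2.49, 0.837, 3.03, 2.18 and 1.92 CPM in LDHA-KD tumours. The groups overlapped in both tumour types (log2 fold change 0.75, SE 0.31, adjusted p = 0.207), and with replicate 5 of the antibody-treated control tumours left out the estimate was 0.49. Of the type 2 cytokines, Il13 was 1.91-fold higher (log2 fold change 0.93, SE 0.22, adjusted p = 0.0922) without overlap in LDHA-KD tumours (0.846 to 2.38 and 3.16 to 4.08 CPM), and Il5, an eosinophil factor, was 2.88-fold higher (log2 fold change 1.52, SE 0.38, adjusted p = 0.0922) at levels of at most 0.902 CPM. Of 12 helper T cell cytokines and factors tested of 17 listed, 8 were higher and 0 lower at unadjusted p under 0.05, and without the 4 libraries 2 of 10; Il17a, Il17f, Il21, Il22 and Il9 did not pass the filter on low counts. Il4 (0.31, SE 0.30) was among the 4 that did not reach it.

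Other lymphocytes gave smaller counts. Among natural killer cell genes (receptors and the chemokine gene Xcl1) 2 of 9 were higher at unadjusted p under 0.05, Klrd1 (0.50) and Klrc1 (0.57), and 0 without the 4 libraries. Their median was 0.21, and 0.12 with replicate 3 of the antibody-treated LDHA-KD tumours left out. Of 7 B cell genes tested, 0 were higher or lower, with and without the 4 libraries, and Fcer2a and Cr2 were among those that did not pass the filter. Among immunoglobulin transcripts, Igkc, the kappa light chain constant region, stood at 0.423, 0.696, 0.676 and 1.03 CPM under IgG and 1.26, 1.26, 2.57, 0.885 and 7.60 CPM under antibody in control tumours, and at 5.71, 2.10, 3.70, 5.90 and 6.07 and 5.88, 13.8, 7.57, 11.2 and 10.5 CPM in LDHA-KD tumours. Control replicate 4 and LDHA-KD replicate 1 under antibody lay within the IgG ranges, and Igkc was 2.65-fold higher (log2 fold change 1.40, SE 0.35, adjusted p = 0.0922). Of 11 plasma cell and immunoglobulin genes tested, 4 were higher at unadjusted p under 0.05, and 3 of 10 without the 4 libraries. Jchain, the joining chain of secreted antibody, gave 1.13 (SE 0.35, adjusted p = 0.117), whereas Sdc1 gave 0.08. Carcinoma cells can also express Sdc1, and their part in its value was not tested.

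Among myeloid genes, those of neutrophils stood highest. Of 15 neutrophil and myeloid suppressor genes tested of 16 listed, 14 were higher and 0 lower at unadjusted p under 0.05, 8 passed with DESeq2, and the median log2 fold change was 0.85 (0.72 in control and 0.76 in LDHA-KD tumours). Without the 4 libraries 6 were higher and the median was 0.31. S100a8 encodes a subunit of calprotectin, an abundant neutrophil protein. In control tumours, S100a8 stood at 130.2, 143, 139 and 92.3 CPM under IgG and at 205, 135, 246, 257 and 405 CPM under anti-CTLA-4. In LDHA-KD tumours it stood at 169, 77.8, 216, 163 and 196 CPM under IgG and at 234, 145, 404, 246 and 364 CPM under anti-CTLA-4. In both tumour types replicate 2 under antibody lay within the IgG range and the other 4 lay above it. S100a8 was 1.82-fold higher (log2 fold change 0.87, SE 0.21, adjusted p = 0.0922), and its partner S100a9 1.92-fold (log2 fold change 0.94, SE 0.22, adjusted p = 0.0922).

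Arg2, the mitochondrial arginase, spanned 14.1 to 21.7 CPM under IgG and 20.04 to 32.7 CPM under antibody in control tumours, and 17.3 to 24.8 and 21.6 to 52.7 CPM in LDHA-KD tumours (log2 fold change 0.60, SE 0.15, adjusted p = 0.0922). Receptors of neutrophils gave 0.88 (Cxcr2, SE 0.25) and 0.85 (Csf3r, SE 0.23), and the granule protein gene Ltf gave 1.42 (SE 0.41). Prtn3, a granule protease gene of precursors, was the member that did not reach unadjusted p under 0.05 (0.25). Erythroid genes, which mark blood in the sample, were also higher, 5 of 6 tested of 8 listed at unadjusted p under 0.05 (median 0.58), with a summed level of 49.3 to 142 CPM in control IgG tumours, 86.4 to 219.8 in control anti-CTLA-4 tumours, 41.7 to 87.8 in LDHA-KD IgG tumours and 57.9 to 155 in LDHA-KD anti-CTLA-4 tumours. Without the 4 libraries 0 of the 6 reached that level, and the part of blood in the neutrophil result was not tested.

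Chemokine ligands numbered 17 higher and 0 lower of 22 tested at unadjusted p under 0.05, 9 with DESeq2, with a median of 0.70 (0.27 without the 4 libraries, where 7 were higher and 1 lower). The list leaves out Cxcl9, Cxcl10 and Cxcl11, held on the interferon-gamma response list, and Xcl1, held on the natural killer cell list. Cxcl3 attracts neutrophils through CXCR2. The levels of Cxcl3 in control tumours were 7.33, 5.34, 5.65 and 2.99 CPM under IgG and 18.5, 7.02, 26.8, 10.6 and 31.8 CPM under anti-CTLA-4. Those in LDHA-KD tumours were 8.02, 2.56, 12.2, 7.50 and 5.72 CPM under IgG and 9.77, 4.73, 80.4, 16.5 and 69.1 CPM under anti-CTLA-4. LDHA-KD replicates 3 and 5 under antibody lay far above the other 3 of their group, and the groups overlapped in both tumour types. Cxcl3 was 4.28-fold higher (log2 fold change 2.10, SE 0.46, adjusted p = 0.0751), and its log2 fold change was 0.84 without the 4 libraries. Cxcl3 is among the genes with the highest loadings on the component by which those libraries were picked.

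Cxcl2 (1.53, SE 0.36), Cxcl5 (1.02, SE 0.31) and Cxcl1 (0.59, SE 0.21), ligands of the same receptor, were also higher at unadjusted p under 0.05. Ccl8, a ligand made by macrophages, stood at 339, 568, 684 and 353 CPM under IgG and at 1076, 674, 1095, 814 and 1230.1 CPM under antibody in control tumours. The LDHA-KD levels were 639, 441, 1089.7, 611 and 728 CPM and 834, 713, 1432, 1415 and 1228 CPM. In control tumours only antibody replicate 2 lay within the IgG range, and in LDHA-KD tumours IgG replicate 3 lay above antibody replicates 1 and 2, and Ccl8 was 1.78-fold higher (log2 fold change 0.83, SE 0.19, adjusted p = 0.0770). Cxcl13, the B cell attractant, gave 1.27 (SE 0.29, adjusted p = 0.0871) at levels of at most 2.46 CPM, and Ccl5, made by activated T cells among others, gave 0.84 (SE 0.20, adjusted p = 0.0922). Outside the chemokine list, Cxcl9 and Cxcl10, interferon-induced ligands of CXCR3, gave 0.29 (SE 0.31) and 0.17 (SE 0.18). Within the list, Ccl2 gave 0.08 (SE 0.09).

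Of 15 macrophage genes, 2 were higher and 1 lower at unadjusted p under 0.05, with a median of -0.11, and 1 was higher and 0 lower without the 4 libraries. Adgre1, which encodes F4/80, was the lower one (log2 fold change -0.36, SE 0.12, adjusted p = 0.140), and Gpnmb (0.51) and Ms4a7 (0.21) the higher ones. C1qa, C1qb and C1qc, the complement chains of tumour macrophages, gave -0.12, -0.24 and -0.22. The Fc gamma receptors through which antibodies can engage myeloid cells had small estimates, with 2 of 6 listed genes higher at unadjusted p under 0.05 and 1 without the 4 libraries: Fcgr3 gave 0.17 (SE 0.05, adjusted p = 0.101), Fcgr2b, the inhibitory receptor, 0.15 (SE 0.07), Fcgr4 0.09 (SE 0.15) and Fcgr1 -0.22 (SE 0.11). In dendritic cell genes 2 of 12 were higher, Batf3 (0.49) and Ccr7 (0.42), and 1 without the 4 libraries, and of 9 mast cell genes 0 were higher or lower. Of 5 eosinophil genes tested 1 was higher, Ear2 (0.94), while Epx, Ear1 and Ear6 did not pass the filter. In both lists 0 genes were higher or lower without the 4 libraries.

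**Figure D2:**
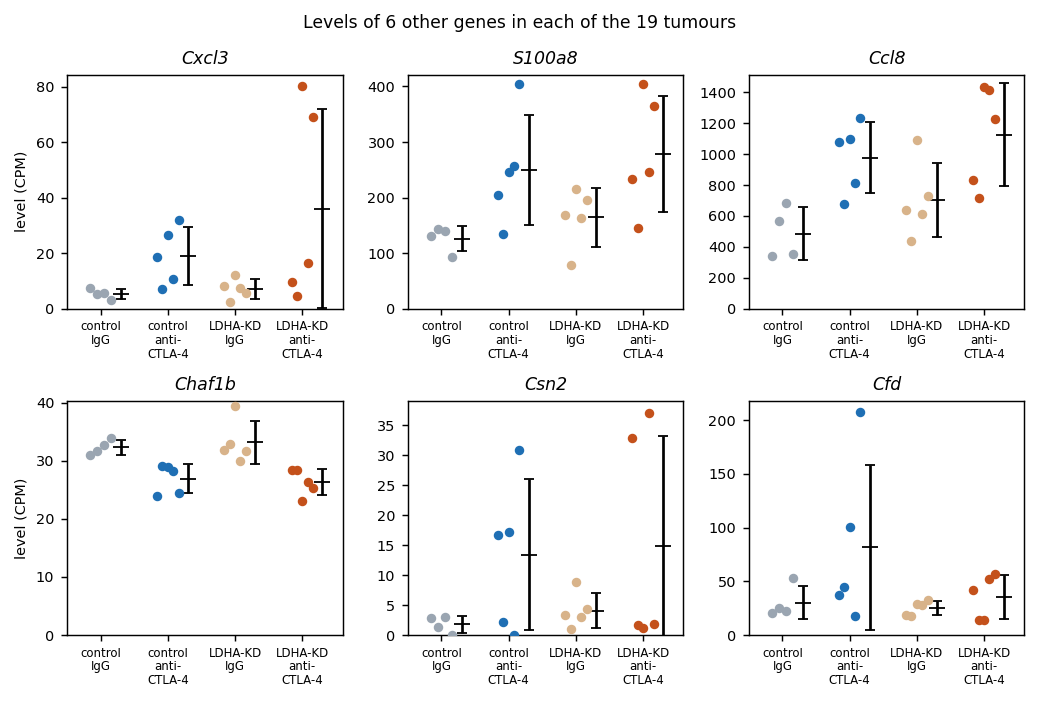
Levels in CPM of Cxcl3, S100a8, Ccl8, Chaf1b, Csn2 and Cfd, 1 panel each, in the 19 tumours by group. Points are single tumours and the bars beside them the mean ± SD of each group (n = 4 for control IgG, n = 5 for the others); Chaf1b under antibody lies below all IgG tumours of the same type, whereas Cxcl3, Csn2 and Cfd are raised in some antibody-treated tumours and not in others.

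Interferon-gamma response genes had estimates above 0 in 25 of 25 cases, against 8221 of all 16763 genes tested. At unadjusted p under 0.05, 6 were higher, and 3 passed with DESeq2. The median of the list was 0.33, and without the 4 libraries it was 0.20, with 4 of 24 tested higher. Gbp6 has 2 gene entries, and counted with its other entry the main fit also had 24 genes tested, 6 of them higher. The median was 0.16 without control anti-CTLA-4 replicate 5 alone. Among the 6 were Serpina3g (0.64), Socs1 (0.55), Cd274, Ido1 (0.82) and Gbp5 (0.52). Most guanylate-binding proteins and Irf1 (0.15, SE 0.13) did not reach it. Of 15 genes of MHC class I presentation 3 were higher, H2-T23 (0.33), Tap2 (0.33) and H2-D1 (0.27), and 0 without the 4 libraries. MHC class II genes gave 0 of 9 in either direction, also without the 4 libraries, with H2-Aa at -0.02 (SE 0.17) and Cd74 at 0.15 (SE 0.17). Of 20 type I interferon response genes 4 were higher, among them Oas2 (0.57) and Rsad2 (0.48), and 0 without the 4 libraries.

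Proliferation genes had estimates below 0 in 25 of 25 cases, while 8221 of all 16763 genes tested lay above 0. None of the 25 passed the edgeR test. Of the 25, 14 were lower at unadjusted p under 0.05, against 7.74% of all genes, with a median of -0.16, and 2 passed with DESeq2. Without the 4 libraries 6 were lower, and the median was -0.09. Mcm7 is a subunit of the helicase that opens replication origins. Mcm7 measured 212, 193, 193 and 188 CPM in the control IgG tumours and 162, 177, 187, 162 and 170.1 CPM in the control anti-CTLA-4 tumours. The LDHA-KD tumours held 147, 145, 159, 117 and 144 CPM under IgG and 121, 127, 101, 118 and 111 CPM under anti-CTLA-4. The control groups did not overlap, and in LDHA-KD tumours antibody replicates 1, 2 and 4 lay above the lowest IgG value, that of replicate 4. Mcm7 stood at 0.839 of its IgG level (log2 fold change -0.25, SE 0.06, adjusted p = 0.0770). Mki67, the common marker of cycling cells, gave -0.19 (SE 0.08, adjusted p = 0.181), Top2a -0.19 (SE 0.07) and Pcna -0.21 (SE 0.09).

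Chaf1b, a subunit of the chromatin assembly factor that loads histones behind the replication fork, had no overlap in either tumour type. Under IgG, the control tumours had Chaf1b levels of 31.1, 31.6, 32.8 and 34.0 CPM, and under anti-CTLA-4 of 23.9, 29.1, 29.0, 28.2 and 24.5 CPM. For the LDHA-KD tumours these were 31.8, 33.0, 39.5, 29.9 and 31.7 CPM and 28.5, 28.5, 23.1, 26.4 and 25.4 CPM. Every antibody-treated tumour lay below every IgG tumour of its type (log2 fold change -0.30, SE 0.06, adjusted p = 0.0750, DESeq2 adjusted p = 0.00157). Only 2 genes of 16763 met that criterion in the lower direction (0.0119%), the other being Accs (-0.23), and 4 in the higher direction (0.0239%): Gm15987 (0.73), Il13ra2 (1.23), Sh2d1a (0.96) and Tmem156 (0.39). Il13ra2, the decoy receptor for interleukin-13, ran from 2.79 to 7.23 CPM under IgG and from 7.66 to 15.9 CPM under antibody in control tumours, and from 1.49 to 4.89 and from 4.97 to 18.9 CPM in LDHA-KD tumours (adjusted p = 0.0770). Sh2d1a encodes SAP, an adaptor of lymphocyte receptors (adjusted p = 0.0872), and its levels were low. They ran from 0.0570 to 0.298 CPM under IgG and from 0.304 to 0.701 CPM under antibody in control tumours. In LDHA-KD tumours they ran from 0.615 to 0.789 and from 0.837 to 1.36 CPM. The lowest value lay under the level of 3 counts. These 5 genes other than Chaf1b were named after their values were seen.

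The other genes with the smallest p in the lower direction were Samd10 (log2 fold change -0.38, SE 0.07, adjusted p = 0.0750), the non-coding Cep83os (-0.41, SE 0.08), Ccdc125 (-0.36, SE 0.07) and Zgrf1, a helicase of DNA repair (-0.29, SE 0.06). Each of the 4 was lower with DESeq2 at adjusted p from 0.000957 to 0.00174. DESeq2 used the same samples by which these genes and Chaf1b were picked, so its values are not separate support. In the higher direction, next to Ctla4, Icos, Tnfrsf9 and Cd3g, stood Tob1, a growth-restraining gene also known from resting T cells. Control tumours held Tob1 at 12.6, 13.6, 14.8 and 12.1 CPM under IgG and at 20.4, 13.7, 15.9, 16.4 and 17.3 CPM under anti-CTLA-4. Among LDHA-KD tumours the values were 6.44, 7.0, 7.77, 7.32 and 7.29 CPM under IgG and 8.58, 8.72, 11.1, 9.36 and 9.90 CPM under anti-CTLA-4. The LDHA-KD groups did not overlap, and in control tumours only replicate 2 under antibody lay within the IgG range (log2 fold change 0.37, SE 0.07, adjusted p = 0.0750). The smallest p of all belonged to the predicted gene Gm15056, named after its values were seen (log2 fold change 2.21, SE 0.36, adjusted p = 0.0750), at 0.684 to 2.50 and 2.47 to 17.7 CPM in control and 2.28 to 5.29 and 5.24 to 32.0 CPM in LDHA-KD tumours.

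Hypoxia response genes numbered 16 higher and 0 lower of 20 tested at unadjusted p under 0.05, 12 with DESeq2 (median 0.41; 9 of 20 and 0.30 without the 4 libraries). Ero1l, an oxidase of the endoplasmic reticulum induced under low oxygen, stood at 493, 400.0, 302 and 163 CPM under IgG and at 841, 352, 634, 595 and 582 CPM under antibody in control tumours. In LDHA-KD tumours the levels were 214, 151, 231, 237 and 232 CPM and 245, 303, 429, 313 and 472 CPM. The LDHA-KD groups did not overlap, while the control groups did (log2 fold change 0.77, SE 0.18, adjusted p = 0.0922). In LDHA-KD tumours 7 of the 20 genes were higher without overlap, against 0.817% of all genes, and in control tumours 0, against 0.555%. Vegfa, the angiogenic factor, gave 0.59 (SE 0.19), Ndrg1 0.58 (SE 0.15), and Car9, a carbonic anhydrase, 0.44 (SE 0.13), whereas Ddit4 gave -0.02 (SE 0.09).

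Glycolysis genes other than Ldha numbered 13 higher and 0 lower of 19 at unadjusted p under 0.05, by small amounts (median 0.19), and 2 were higher without the 4 libraries. Slc2a1, the glucose transporter GLUT1, spanned 177 to 437 CPM under IgG and 324 to 742 CPM under antibody in control tumours, and 178 to 252 and 241 to 458 CPM in LDHA-KD tumours (log2 fold change 0.59, SE 0.18, adjusted p = 0.109). Pgam1, phosphoglycerate mutase, gave 0.30 (SE 0.08) and Pkm, pyruvate kinase, 0.14 (SE 0.06). Ldha gave 0.20 (SE 0.07, adjusted p = 0.156), with 0.26 in control and 0.16 in LDHA-KD tumours. Nuclear oxidative phosphorylation genes gave 0 of 24 in either direction, and 1 higher without the 4 libraries. Among mitochondrially encoded genes 1 of 8 was lower, mt-Co3 (-3.90, SE 1.36), with LDHA-KD IgG replicate 3 at 50.4 CPM and the other 18 libraries between 0.0580 and 0.323 CPM, and 1 was lower without the 4 libraries.

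Stress genes gave intermediate counts. Of 10 heat shock genes 6 were higher at unadjusted p under 0.05 and 5 without the 4 libraries, among them Hspa1b (0.63, SE 0.15) and Hspa1a (0.73, SE 0.20), near-identical copies between which reads can be divided. Of 16 ATF4 target genes 6 were higher, among them Atf5 (0.43, SE 0.09, adjusted p = 0.0751) and Vldlr (0.71, SE 0.20), and 2 without the 4 libraries, while Atf4 gave 0.16 (SE 0.09). Of 13 immediate early genes 7 were higher, Dusp1 (0.59) and Zfp36 (0.59) with the largest estimates, and 1 without the 4 libraries; Egr1 gave -0.04 (SE 0.11). Of 16 genes of cholesterol and fatty acid synthesis, 0 were higher or lower, also without the 4 libraries. In the carcinoma and stroma lists, 1 of 12 epithelial genes was higher (Krt19, 0.43) and 2 lower (Krt7, -0.42, and Krt8, -0.19), 1 of 16 fibroblast genes was higher (Dcn, 0.51) and 1 lower (Postn, -0.30), and 4 of 12 endothelial genes were higher, among them Flt1 (0.34) and Plvap (0.41). In the fit without the 4 libraries, 0 epithelial and 0 fibroblast genes were higher or lower, and 1 endothelial gene was higher.

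Genes of lactating mammary gland had the highest median of the 39 lists. All 7 tested, of 8 listed, were higher at unadjusted p under 0.05, with a median log2 fold change of 2.01, and 5 without the 4 libraries. Csn2 encodes beta-casein, a milk protein. In control tumours, Csn2 stood at 2.86, 1.28, 3.06 and 0.0855 CPM under IgG and at 16.7, 2.18, 17.2, 0.0268 and 30.9 CPM under anti-CTLA-4. In LDHA-KD tumours it stood at 3.37, 0.923, 8.81, 2.99 and 4.33 CPM under IgG and at 32.9, 1.70, 1.10, 37.1 and 1.81 CPM under anti-CTLA-4. Control replicates 1, 3 and 5 and LDHA-KD replicates 1 and 4 under antibody were high, and the other 5 antibody-treated tumours lay within or below the IgG ranges, the lowest under the level of 3 counts (log2 fold change 2.31, SE 0.80, adjusted p = 0.141). Csn3, kappa-casein, gave 2.01 (SE 0.50, adjusted p = 0.0922) and Prlr, the prolactin receptor, 2.14 (SE 0.53, adjusted p = 0.0922). Prlr gave 0.82 without the 4 libraries (unadjusted p = 0.0650), and it too is among the genes with the highest loadings on the component that picked them. The summed level of this list was 5.07 to 13.9 CPM in control IgG tumours, 1.77 to 136 in control anti-CTLA-4 tumours, 7.03 to 31.3 in LDHA-KD IgG tumours and 12.2 to 98.3 in LDHA-KD anti-CTLA-4 tumours. Wap did not pass the filter on low counts.

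Adipocyte genes had estimates above 0 in 8 of 8 cases tested, against 8221 of all 16763 genes tested. Of the 8, 1 reached unadjusted p under 0.05, and 0 without the 4 libraries. Cfd, adipsin, stood at 20.4, 24.95, 22.8 and 52.9 CPM under IgG and at 37.3, 44.8, 101, 17.5 and 208 CPM under antibody in control tumours. The LDHA-KD levels were 18.5, 17.3, 29.3, 27.9 and 32.3 CPM and 41.7, 14.0, 13.7, 51.8 and 56.4 CPM. Control replicates 3 and 5 under antibody held the highest values, and LDHA-KD replicates 1, 4 and 5 under antibody lay above all LDHA-KD IgG tumours. The groups overlapped in both tumour types (log2 fold change 0.94, SE 0.40, adjusted p = 0.215). Leptin (Lep) gave 1.15 (SE 0.59) and resistin (Retn) 1.11 (SE 0.55). Without control anti-CTLA-4 replicate 5 alone, Cfd gave 0.61, Lep 0.66 and Retn 0.54, and without the 4 libraries 0.34, 0.45 and 0.09. The list's median was 0.97, with 1.77 in control and 0.16 in LDHA-KD tumours, 0.49 without that replicate and 0.17 without the 4 libraries. Its summed level was 30.3 to 108 CPM in control IgG tumours, 30.9 to 443 in control anti-CTLA-4 tumours, 36.6 to 78.5 in LDHA-KD IgG tumours and 30.0 to 109 in LDHA-KD anti-CTLA-4 tumours. Of 12 skeletal muscle genes 0 were higher and 4 lower at unadjusted p under 0.05, among them Tnnt3 (log2 fold change -0.76, SE 0.18, adjusted p = 0.0922) at 25.1 to 34.9 and 9.63 to 27.0 CPM in control tumours, and 11.8 to 20.7 and 5.48 to 13.4 CPM in LDHA-KD tumours. In muscle, 1 gene was lower without the 4 libraries. Of 6 keratinocyte genes 0 were higher or lower, also without the 4 libraries, and of 8 Schwann cell and nerve genes 3 were higher, among them Sox10 (1.68) and Pmp22 (0.26), and 1 lower, Ncmap (-0.57), against 0 and 1 without the 4 libraries. The part of these tissues in the immune, hypoxia and proliferation results was not tested.

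**Figure D3:**
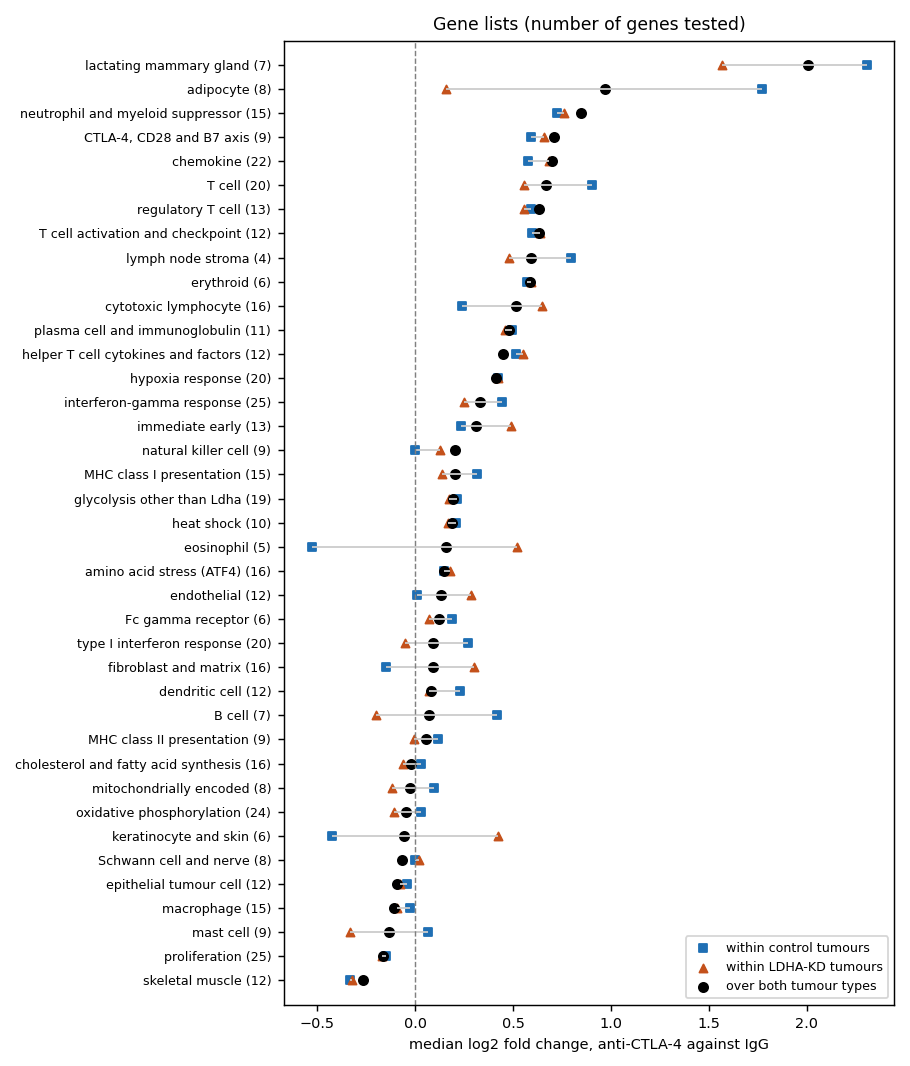
Median log2 fold change of anti-CTLA-4 against IgG for the 39 gene lists (number of genes tested in brackets), over both tumour types (circles), within control tumours (squares) and within LDHA-KD tumours (triangles). Lactating mammary gland has the highest pooled median at 2.01, T cell lies at 0.67, proliferation at -0.16 and skeletal muscle at -0.27; the medians carry no error bar.

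The level of a list varied between tumours of the same group. LDHA-KD replicates 3 and 5 under antibody were high for neutrophil, chemokine, hypoxia and immediate early genes together, and control replicate 5 under antibody for neutrophil, chemokine and interferon-gamma response genes. LDHA-KD replicate 2 under antibody was low for cytotoxic, MHC class II and interferon-gamma response genes (-1.01, -0.94 and -0.61 in mean log2 CPM from the mean of its tumour type), and control replicate 4 under antibody stayed near the mean of its tumour type for T cell and chemokine genes. LDHA-KD replicate 1 under antibody was low for T cell genes (-0.24) and high for milk protein genes (1.87). The median SD of log2 CPM over genes was 0.137 in LDHA-KD IgG tumours (n = 5), 0.219 in LDHA-KD anti-CTLA-4 tumours (n = 5), 0.227 in control IgG tumours (n = 4) and 0.195 in control anti-CTLA-4 tumours (n = 5). In LDHA-KD tumours 74.0% of genes had the larger SD under antibody, and in control tumours 41.2%.

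**Figure D4:**
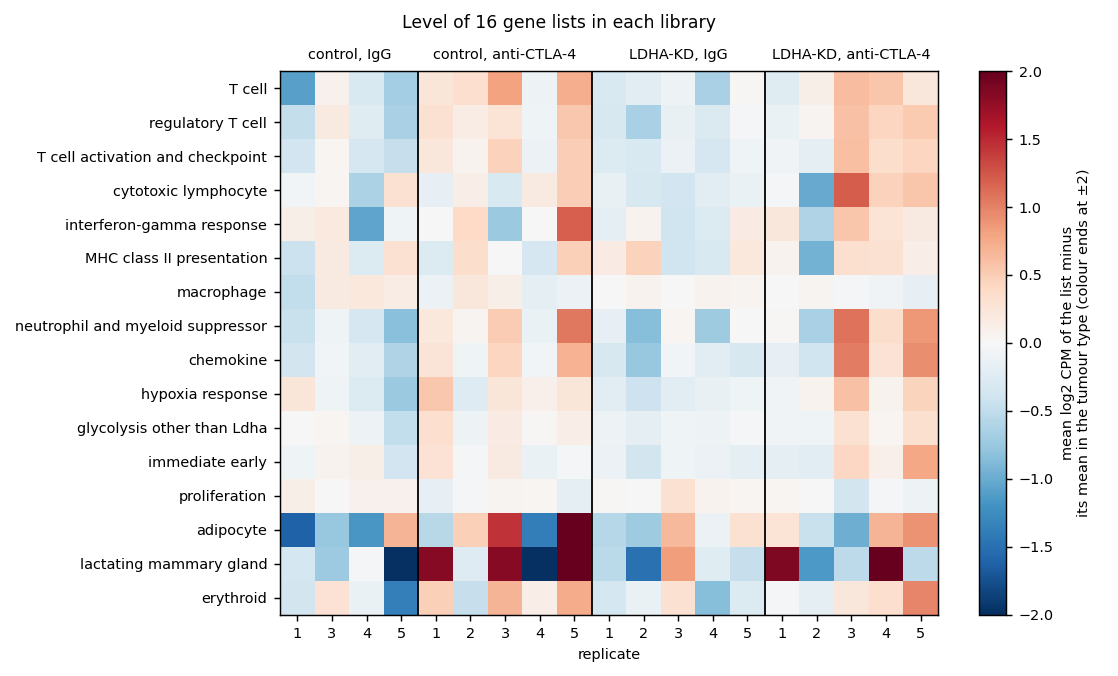
Mean log2 CPM of 16 gene lists in each of the 19 libraries, as the difference from the list's mean in that tumour type (red above, blue below, colour ends at ±2), with replicates within the 4 groups on the horizontal axis. The antibody-treated libraries of a group differ among themselves, for example cytotoxic genes at -1.01 in LDHA-KD replicate 2 and at 1.21 in replicate 3.

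The pooled effect averages over 2 tumour types, so the effect within each and the difference between them were examined. Within control tumours 0 genes had an adjusted p under 0.05 with edgeR and 1346 an unadjusted p under 0.05 (8.03%), and within LDHA-KD tumours 0 and 1987 (11.9%). These effects share no samples. The estimates had the same sign in 66.7% of genes, and of the 357 genes at unadjusted p under 0.05 in both, 346 (96.9%) had the same sign. Of the 1346 genes in control tumours 87.3% had the same sign in LDHA-KD tumours, and of the 1987 in LDHA-KD tumours 83.4% had the same sign in control tumours. Across the 16763 genes, which are not independent replicates, Pearson's r between both sets of estimates was 0.465 and Spearman's rho 0.441, and all of them share a scaling and a fit.

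No gene passed the test of the difference, the interaction of treatment and tumour type: 0 of 16763 at an adjusted p under 0.05 with edgeR, 415 at an unadjusted p under 0.05 (2.48%), and 0 with DESeq2 and limma voom (451 and 357 at unadjusted p under 0.05). Ctla4 was among the genes whose estimates lay close in both tumour types, with an interaction of 0.04 (LDHA-KD minus control, SE 0.28). The control and LDHA-KD estimates were 1.32 and 0.57 for Cd3d, and 1.47 and 0.44 for Trbc2, and neither difference passed the test. The smallest interaction p belonged to Stc1, a secreted hormone gene, at 67.1, 62.1, 57.7 and 72.5 CPM under IgG and 48.6, 58.1, 42.3, 57.8 and 50.4 CPM under antibody in control tumours. The LDHA-KD levels were 17.0, 17.1, 16.6, 17.96 and 16.8 CPM and 19.02, 18.8, 26.8, 22.1 and 24.2 CPM. All 5 antibody-treated LDHA-KD tumours lay above the IgG ones, and 3 of 5 antibody-treated control tumours lay below all IgG ones. The interaction of Stc1 was 0.71 (SE 0.15, edgeR adjusted p = 0.9998). DESeq2 gave it an adjusted p of 0.0926, the smallest of its interaction test. Cdh15, Fst, Odf3l1 and Rarb followed, with interactions of 1.27, 0.74, 1.15 and 1.13, and none passed.

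**Figure D5:**
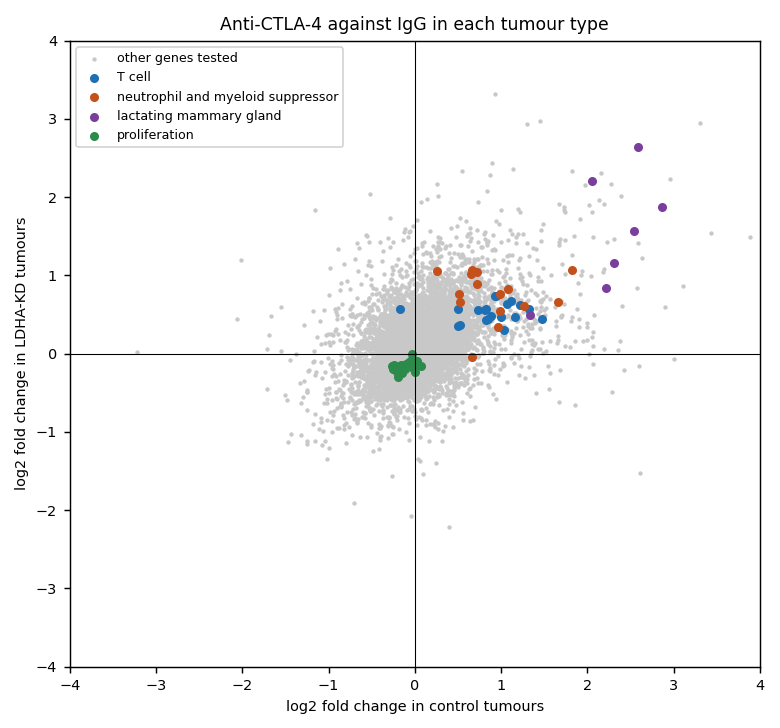
Log2 fold change of anti-CTLA-4 against IgG in LDHA-KD tumours (vertical axis) against that in control tumours (horizontal axis), 1 point per gene tested, with 4 gene lists coloured; 1 gene lies outside the plotted range. T cell, neutrophil and lactating mammary gland genes lie mostly in the upper right, 19 of the 20 T cell genes being above 0 in both tumour types. Of the 25 proliferation genes, near the origin, 0 are above 0 in both and 21 are below 0 in both. Over all 16763 genes tested, 5411 are above 0 in both and 5768 below 0 in both.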

How the data were processed

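RNA of 19 tumours was sequenced after poly(A) selection with a stranded kit, as 50-base read pairs, per the labels' protocols. The values are the raw counts per gene that the authors deposited, from HTSeq 0.5.3 with build mm10, per the submitters' processing notes, which also name Picard 1.124 without its role. The aligner, gene annotation and strand setting are not given in the sources used here, so reads of overlapping antisense genes cannot be told apart. Summary lines that name no gene held 26.2 to 28.7% of each library's total and were left out. All 19 columns were used.

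Groups came from the labels. In R 4.3.3 with edgeR 4.0.16, filterByExpr kept 16763 of 46983 genes, TMM factors were applied, and the quasi-likelihood F test was run on a model of tumour type plus treatment. Benjamini-Hochberg adjustment took in every gene tested, and 0.05 was the limit for a call. The SE is the absolute log2 fold change divided by the square root of F. Effects within each tumour type and the interaction came from a model of the 4 groups. CPM use TMM-scaled library sizes, and log2 CPM carry a prior count of 2. The 3-count floor covers counting error only. The script was tested on simulated data. Between replicates of a group, the lowest chi-square per gene was 5.01, so no library appeared to be deposited a second time.

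Genes named were 13 chosen by name (the CTLA-4 axis, T cell genes and Ldha), the 5 smallest p in each direction outside predicted genes and low levels, up to 3 genes of each of the 8 lists with most members past the threshold (with 0 past it, by the size of the median), the 5 smallest interaction p, and examples of lists. Genes picked as the 5 smallest p in a direction also had to have the same sign in both tumour types. The members and the 39 lists (532 symbols, 4 of them absent from the counts: Cd244a, Ero1a, Ahsp and Fdcsp) were chosen with earlier results of these data known, and some genes stand on more than 1 list. Coordinates were looked up in GENCODE M21 (GRCm38), where an entry was found for 16708 of the 16763 genes. Alternatives were other scalings and filters, DESeq2 1.42.0, limma 3.58.1 voom, a replicate block, each library left out in turn, and, chosen after seeing the data, an adjusted p under 0.1 and a fit without the 4 libraries at the end of the second component. A few genes of the lists are not reported here by name.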

Additional observations from a re-analysis of the deposited data

Results flagged for a closer look

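Single libraries that lay far from the rest of their group were looked for in 44 genes, as 176 sets of 4 or 5 samples, by the gap to the nearest sample over the group's range. There were 10 such values, and chance gives about 1 in 20 sets. Control IgG replicate 5 accounted for 4 of them: S100a9 was low at 143.8 CPM (next lowest 211.9), while Cfd was high at 52.9 CPM, Retn at 5.30 CPM and Cd86 at 21.7 CPM. Control IgG replicate 4 was low for Ifng at 0.298 CPM. Control anti-CTLA-4 replicate 5 was high for Ctla4 at 8.63 CPM, for Cd274 at 129.8 CPM and for Igkc at 7.60 CPM. LDHA-KD IgG replicate 2 was low for Ero1l at 150.8 CPM. LDHA-KD IgG replicate 3 was high for mt-Co3 at 50.4 CPM, where the next highest of its group stood at 0.282 CPM.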

How the results depend on the processing

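The number of genes called depended on the tool and on single libraries. The count was 0 higher and 0 lower with RLE factors, total counts only, a stricter filter, limma voom, the average of the within-tumour contrasts and without the 4 libraries. Without a filter 2 genes were called higher. DESeq2 called 466 higher and 159 lower, and at an adjusted p under 0.1 the edgeR test called 225 higher and 61 lower. With each library left out in turn, genes called higher ranged from 0 to 328 and genes called lower from 0 to 149. The calls came without LDHA-KD anti-CTLA-4 replicate 2 (328 and 149), control anti-CTLA-4 replicate 2 (79 and 19), LDHA-KD anti-CTLA-4 replicate 1 (46 and 11), control IgG replicate 3 (3 and 0) and control anti-CTLA-4 replicate 4 (1 and 0). The cause was not tested. With the replicate number as a block, 600 genes were called higher and 264 lower, of which 543 were also called by DESeq2 (86.9% of its calls, 62.8% of those with the block). The numbers share no stated pairing, and same-numbered libraries correlated at -0.212 to 0.392 in their deviations from the group means. The interaction gave 0 genes under all alternatives run. Of the named genes' values, 1026 were on the same side of the threshold with the same sign, 114 passed it and 2 changed sign: Cd86, at 0.0574 without control IgG replicate 5 and 0.00578 without LDHA-KD IgG replicate 2. Over the fits that leave out 1 library, Cd86 ranged from -0.0578 to 0.0574. List medians moved by less than the spread between replicates in 1046 cases and by more in 7. The signs of the B cell, MHC class II, cholesterol, eosinophil, fibroblast, keratinocyte, lymph node, mitochondrially encoded, oxidative phosphorylation and type I interferon medians changed under some alternatives. Ifng, Il5, Tox, Cxcl13 and Sh2d1a had few counts, which limits their precision.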
